A study of Mus musculus with 267 samples.

Results

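A set of 5 genes of antigen presentation on major histocompatibility complex (MHC) class II were followed in bone marrow-derived macrophages (BMDMs): the regulator Ciita, the class II chain genes H2-Aa, H2-Ab1 and H2-Eb1, and the invariant chain gene Cd74. They are 5 of 21924 protein-coding genes in the GENCODE vM21 annotation of the mm10 mouse genome and were chosen by name. In mm10, Ciita lies at chr16:10480059-10528418 on the plus strand, H2-Ab1 at chr17:34257689-34269419 (plus), H2-Aa at chr17:34282744-34287823 (minus), H2-Eb1 at chr17:34305867-34316674 (plus) and Cd74 at chr18:60803848-60812652 (plus). A region or peak belonged to a gene when its centre lay within 25 kb of the gene's start, and to the gene with the nearest start when 2 windows met. The rule took 232 of 423610 region rows in 9 tag tables, in which the same site is a row in each table that holds it, and 834 of 1958714 peaks in 54 peak lists. ChIP-seq, in which DNA bound by a protein or marked histone is precipitated with an antibody and sequenced, was done on BMDMs grown with M-CSF from adult female mice of 5 inbred strains. These were SPRET/EiJ (called SPRET here), BALB/cJ (BALB) and NOD/ShiLtJ (NOD), as well as PWK/PhJ (PWK), and the reference strain C57BL/6J (C57). The basal groups had no cytokine, the others had 20 ng/ml of interleukin-4 (IL-4) for 24 h, and C57 cells also for 1 h and 6 h. BMDMs of 2 further genotypes carried loxP-flanked Egr2 alleles (Egr2 fl/fl) without or with LyzM-Cre, a recombinase driven by the lysozyme M promoter of myeloid cells, and were sampled in the basal state and at 24 h of IL-4. Both of these genotypes carry the floxed alleles, and recombination by this driver need not be complete. The study reported efficient Egr2 deletion in these BMDMs. The tables used here hold no EGR2 library of either genotype, so that the deletion was not checked here. Histone marks had 2 libraries a group and RNA polymerase II (Pol II) had 2 to 4, with 1 library at 1 h and 1 in each group of the Egr2 genotypes.

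MHC class II molecules are pairs of an alpha and a beta chain that show peptides from engulfed proteins to CD4+ T cells. H2-Aa and H2-Ab1 encode the alpha and beta chains of the I-A molecule, H2-Eb1 encodes the beta chain of I-E, and Cd74 encodes the invariant chain, which fills the peptide groove during assembly and guides the complex to endosomes. Ciita encodes the class II transactivator, a coactivator that does not bind DNA itself and is recruited to the promoters of these genes by factors such as RFX and NF-Y, which bind conserved boxes there. Ciita transcription starts from several alternative promoters in different cell types, interferon gamma is its classical inducer in macrophages, and IL-4, which acts through the factor STAT6, is known to raise class II molecules on B cells and macrophages. C57 and NOD mice carry a defective gene for the I-E alpha chain and do not display I-E.

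The promoters and bound sites on which the results turn are shown as reference sequence (5' to 3' along the strand named). The promoters of H2-Aa (chr17:34287824-34288073, minus strand) and H2-Eb1 (chr17:34305617-34305866, plus strand) are the 250 bases before the RefSeq start (build GRCm38.p6), with the letters of the NF-Y box, CCAAT or its complement ATTGG, in capitals. Those letters lay 48 bases before the H2-Aa start and 59 and 35 bases before the H2-Eb1 start. The H2-Eb1 promoter also overlaps an exon of the overlapping transcript Gm20513.
H2-Aa promoter: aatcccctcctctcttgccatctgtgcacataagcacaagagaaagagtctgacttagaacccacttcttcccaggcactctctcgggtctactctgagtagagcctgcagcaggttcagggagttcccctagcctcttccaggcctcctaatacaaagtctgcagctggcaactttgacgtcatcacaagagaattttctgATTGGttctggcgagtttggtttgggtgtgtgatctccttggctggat
H2-Eb1 promoter: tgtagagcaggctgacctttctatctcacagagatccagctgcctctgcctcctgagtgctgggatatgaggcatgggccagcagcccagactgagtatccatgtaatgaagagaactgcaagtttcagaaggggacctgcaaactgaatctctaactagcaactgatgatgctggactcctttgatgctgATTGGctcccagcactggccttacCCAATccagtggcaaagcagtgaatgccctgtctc

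Of the 5 genes, these 2 were matched in the RefSeq promoter table used here. The EGR2 peaks of C57 BMDMs at 24 h of IL-4 in an intron of Ciita (chr16:10489165-10489369) and upstream of H2-Aa (chr17:34293635-34293850, in an intron of Gm20513) are shown because EGR2, STAT6 and H3K27ac were all read there (plus strand of mm10, peak bounds as deposited). Capitals mark GCGTGGG, a core of the EGR motif, at bases 95 to 101 of the Ciita peak, and ACTTCCT, the complement of the PU.1 letters AGGAAGT, at bases 30 to 36 of the H2-Aa peak.
Ciita intron peak: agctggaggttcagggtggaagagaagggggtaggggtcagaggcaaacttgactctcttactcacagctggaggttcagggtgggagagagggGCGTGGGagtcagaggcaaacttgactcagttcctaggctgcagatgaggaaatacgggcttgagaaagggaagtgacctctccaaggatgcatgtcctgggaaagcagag
H2-Aa upstream peak: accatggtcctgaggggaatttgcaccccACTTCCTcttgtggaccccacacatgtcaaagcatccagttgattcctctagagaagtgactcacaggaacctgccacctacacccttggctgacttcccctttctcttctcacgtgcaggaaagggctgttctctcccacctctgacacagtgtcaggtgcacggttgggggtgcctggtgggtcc

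The letters were searched on both strands and a match is a description only. CCAAT was present in 33.8% of 32851 promoters of the same length, GCGTGGG in 4.3% and AGGAAGT in 7.69%. Among 2409 EGR2 peaks of C57 at 24 h on chromosomes 16 and 17, which vary in length, CCAAT was present in 23.6%, GCGTGGG in 10.1% and AGGAAGT in 17.6%. The fuller EGR motif GCGNGGGCG (4.7% of promoters and 8.34% of those peaks) and the STAT6 motif, TTC and GAA 4 bases apart (5.85% and 7.47%), were also searched and were not among the letters of these 4 windows. GCGTGGG was added to the search after the Ciita sequence had been seen.

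Values are tags per 1-kb region scaled to 10000000 tags of the library (normalized tags), with distances in kb from the gene's start, negative upstream. The 155 libraries of the tag tables held between 4691644 and 29050468 tags, and values of a few normalized tags rest on a few reads. Each comparison was fitted with limma on log2(normalized tags + 1) over all regions of its table, and a region is said to have risen or fallen only at a Benjamini-Hochberg adjusted p under 0.05. This scale understates the change of low regions. Groups said to lie without overlap are a description of their libraries and not a test. With 2 libraries a group this can often arise without any change. The share of all regions without overlap is not given here. Chromatin was pooled from many cells, so fewer cells carrying a mark and less of it per cell cannot be told apart. The strain tables were made separately and hold different regions, 32 at the 5 genes in BALB, 39 in C57, 37 in NOD, 37 in PWK and 28 in SPRET, and strains are therefore set side by side without a test. Neighbouring 1-kb regions can overlap and share tags, as do those at -0.14, 0.54, 0.89 and 1.18 kb of Cd74 in C57. The class II region is among the most polymorphic of the genome, and reads were aligned to genomes built from mm10 with each strain's short variants. Reads from diverged or duplicated class II sequence can be lost in that step, so a low level in a strain and a loss of mapped reads there cannot be told apart. The PWK table holds no Ciita start region, and the SPRET table holds none of the Ciita regions that lie at -4.0, 9.17 and 16.16 kb in C57.

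In C57, the promoter mark H3K4me3 did not peak at every annotated gene start. At H2-Ab1 the GENCODE gene start belongs to a processed transcript, and H3K4me3 there was 4.37 and 1.95 in the basal and 4.28 and 2.34 in the 24-hour libraries. The protein-coding transcript starts 5.52 kb downstream, and the region at 5.48 kb held 212 and 177 in the basal and 187 and 179 in the 24-hour libraries, with 177 and 238 in the basal and 233 and 204 in the 24-hour libraries at 7.18 kb. At H2-Eb1 the start region held 40.04 and 14.1 in the basal and 67.2 and 23.4 in the 24-hour libraries, and a region inside the gene at 4.05 kb held 196 and 193 in the basal and 171 and 172 in the 24-hour libraries. The level inside H2-Eb1 was thus above the level at its start in each of the 4 libraries. That inner region includes the annotated start of a retained-intron transcript of H2-Eb1, at 3.71 kb. Ciita has annotated transcript starts at 0 kb, between 8.12 and 8.22 kb and between 9.69 and 9.72 kb. For H3K4me3, the region at 9.17 kb held 28.4 and 28.8 in the basal and 40.9 and 71.8 in the 24-hour libraries, against 11.7 and 16.6 in the basal and 10.4 and 18.7 in the 24-hour libraries at the first start. Below, the start region of H2-Ab1 is that of the annotated gene start unless the protein-coding start is named. The start region of Ciita is that of the first annotated start. The region with the highest mean H3K27ac of all 39 C57 regions lay inside Cd74 at 2.05 kb and held 239 and 196 in the basal and 299.6 and 207 in the 24-hour libraries.

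**Figure D1:**
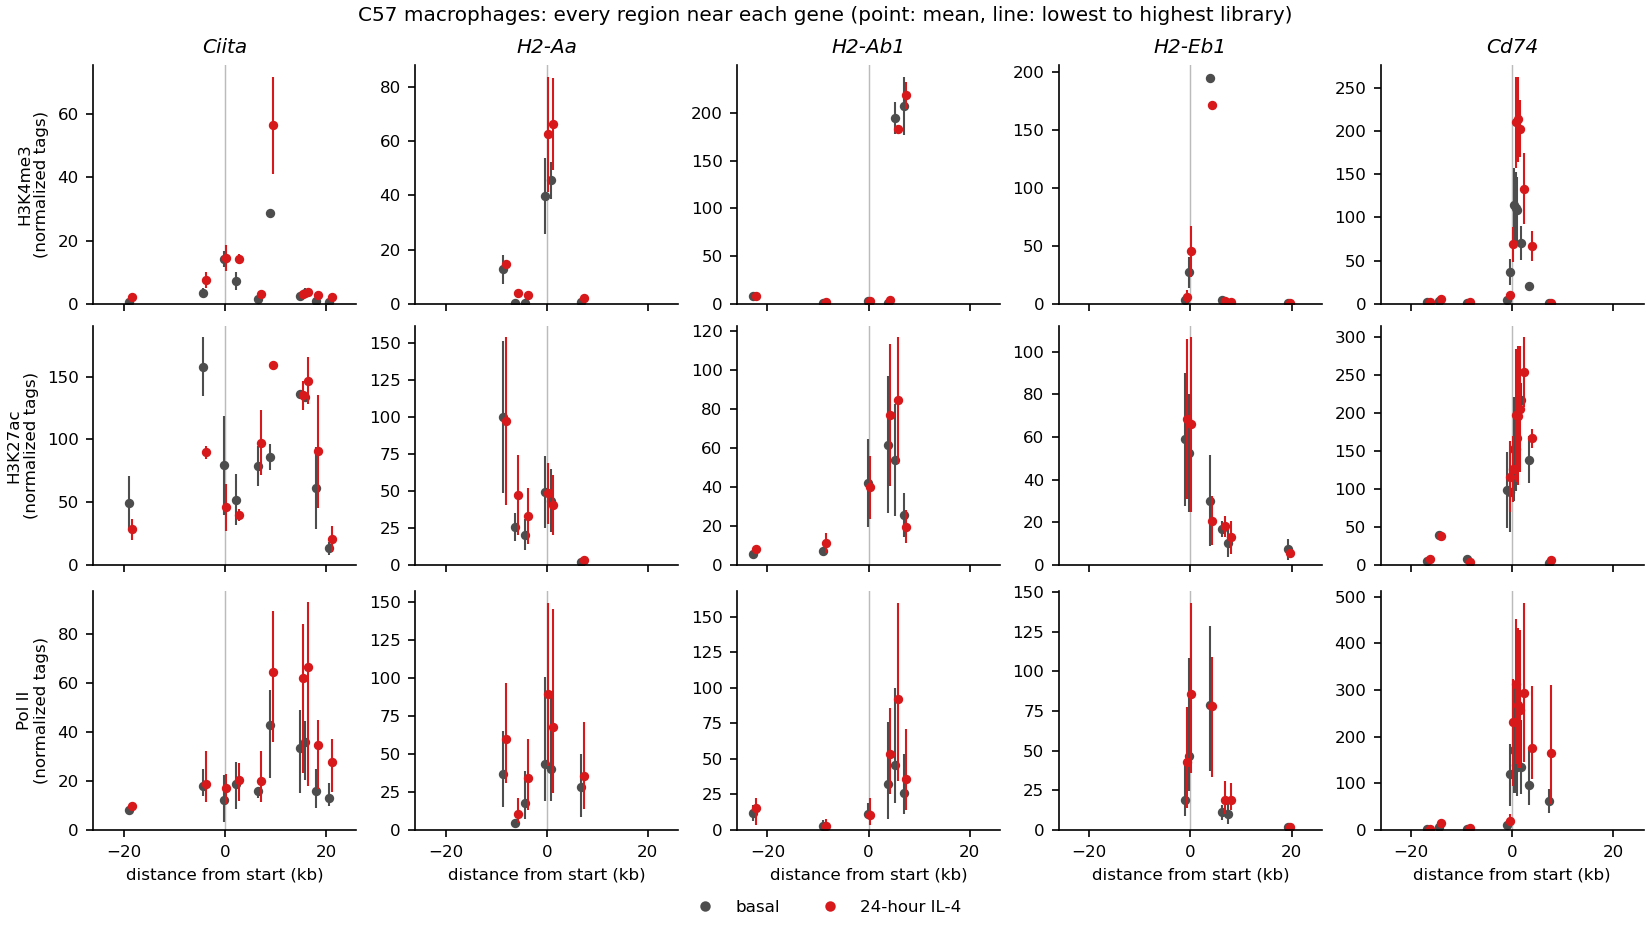
Normalized tags of H3K4me3, H3K27ac and Pol II (rows) at every C57 region near each gene (columns) against the distance of the region centre from the gene's start in kb; points are means and lines run from the lowest to the highest library, grey basal and red 24-hour IL-4. The H2-Ab1 region at 5.48 kb and the H2-Eb1 region at 4.05 kb stand above the start regions of those genes in H3K4me3, and Cd74 holds the highest Pol II.

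Whether IL-4 changes transcription of the class II genes in each strain was addressed by Pol II, whose tags track polymerase on the gene. After 24 h of IL-4 the fitted Pol II level was above basal at most regions of the 5 genes, in 29 of 32 regions of BALB, 34 of 39 of C57, 29 of 37 of NOD, 30 of 37 of PWK and 23 of 28 of SPRET. The median log2 difference over these regions was 1.16 in BALB, 0.78 in C57, 0.63 in NOD, 0.54 in PWK and 0.43 in SPRET, beside 0.32, -0.03, -0.02, -0.03 and -0.10 over all regions of the same tables. The share of all regions above basal is not given here, so the counts cannot be set against the whole tables. In BALB the median over all regions was itself above 0. Neighbouring regions of a gene are not independent. The order of the strains is a description, since regions and libraries differ between the tables. No single region passed the test. Limma called 0 of them in BALB (0.707% of all regions called), C57 (0.319%), NOD (0%), PWK (1.72%) and SPRET (1.05%). At an unadjusted p under 0.05 there were 13 of 32 in BALB, 6 of 39 in C57, 7 of 37 in NOD, 4 of 37 in PWK and 7 of 28 in SPRET, beside 7.62%, 8.82%, 7.65%, 12% and 13% of all regions. Of those, all were higher at 24 h in BALB, C57 and SPRET, 6 of 7 in NOD and 3 of 4 in PWK. The count tools run beside limma called few more: edgeR called Ciita 6.84 kb in SPRET, and DESeq2 called that region and Cd74 2.06 and 2.86 kb in BALB, all higher at 24 h (named after their values were seen).

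Pol II libraries with the same replicate number moved together in C57, PWK and SPRET, which have 3 such pairs each, and a fit with the replicate number as a block was therefore set beside the main one. With the block, Pol II rose at 8 of 37 regions of PWK (9.78% of all regions called) and 5 of 28 of SPRET (8.39%), and at 0 of 39 of C57 (0.809%). The 8 of PWK were Cd74 -0.12, 1.14, 2.08, 3.59, 9.53 and 10.77 kb and Ciita -18.68 and 20.84 kb, and the 5 of SPRET were Cd74 -6.70, 1.22, 1.99 and 3.6 kb and Ciita 6.84 kb. None lay in the windows of H2-Aa, H2-Ab1 or H2-Eb1. The Cd74 regions in these lists include neighbours that cover the same transcribed gene.

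**Figure D2:**
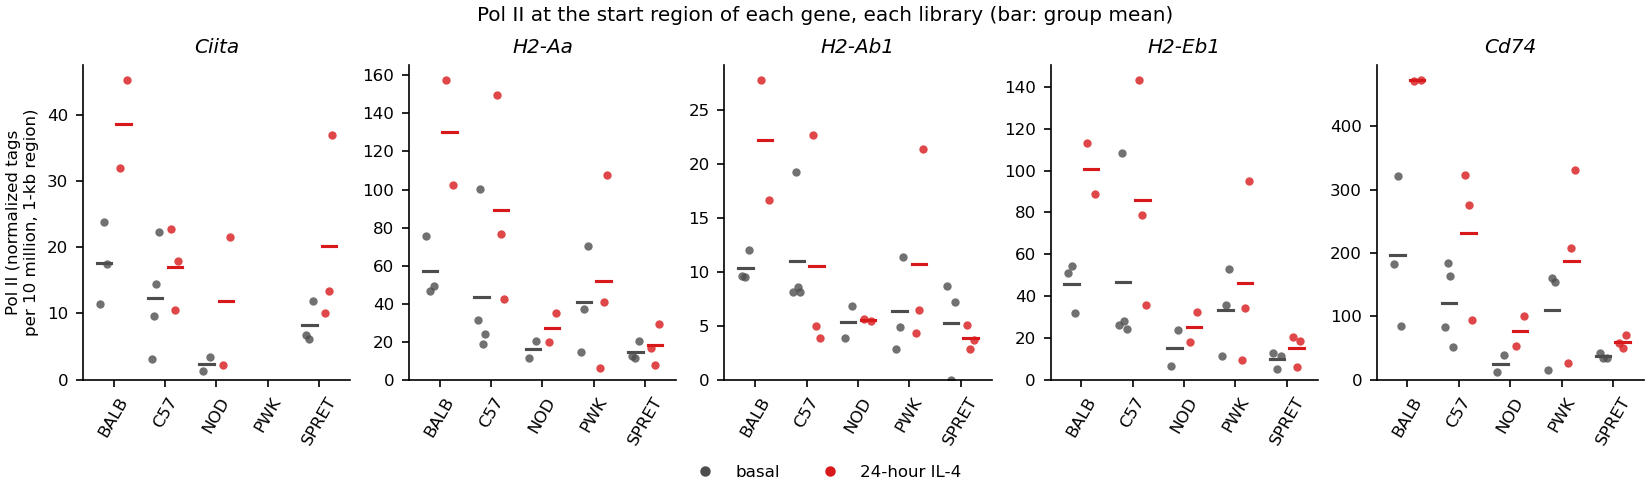
Pol II normalized tags (vertical axes, linear from 0, scaled apart for each gene) at the 1-kb start region of each gene in the 5 strains, with a point for each library and a bar for the group mean, grey basal and red 24-hour IL-4; PWK has no Ciita start region. H2-Ab1 is shown at its annotated gene start and not at its protein-coding start, and Ciita at its first annotated start. At Cd74 both 24-hour libraries of BALB (471 and 473) lie above its 3 basal libraries (85.3 to 321), while in C57 and PWK the groups overlap.

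The start region of Cd74, the invariant chain gene, had the highest mean Pol II of the start regions of these genes in each strain. In BALB it held 183, 321 and 85.3 in the basal libraries and 471 and 473 with IL-4. In NOD it held 11.7 and 39.03 in the basal libraries and 53.1 and 99.9 with IL-4, and in SPRET 41.6, 35.02 and 34.9 in the basal libraries and 57.5, 50.9 and 70.2 with IL-4. In these 3 strains every 24-hour library lay above every basal one. In C57 the start region held 82.99, 184, 163 and 51.6 in the basal libraries and 323, 276 and 94.9 with IL-4. In PWK it held 14.8, 160.2 and 154 in the basal libraries and 25.9, 208 and 330.1 with IL-4, so that the first library of each group was far below the others. The groups overlapped in both strains. Over the 5 strains the log2 differences lay between 0.66 and 1.71 and the adjusted p between 0.25 and 0.86. With the replicate number as a block, Cd74 rose in PWK (log2 difference 0.75, SE 0.24, adjusted p = 0.022) and not in SPRET (0.66, SE 0.21, adjusted p = 0.06). Pol II also covered the body of the gene. At 2.06 kb BALB held 246, 324 and 103 in the basal libraries and 729 and 664 with IL-4, without overlap, and at 2.05 kb C57 held 82.4, 235, 141 and 77.97 in the basal libraries and 488, 246 and 145 with IL-4, with overlap.

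At the start of H2-Aa, the I-A alpha chain gene, BALB Pol II was 75.4, 46.9 and 49.2 in the basal libraries and 158 and 102 with IL-4, higher at 24 h without overlap. C57 held 31.2, 100.3, 18.8 and 24.3 in the basal libraries and 149, 76.5 and 42.3 with IL-4. The second basal library of C57 (100.3) was thus above the other basal libraries and above 2 of the 3 libraries with IL-4. NOD held 11.7 and 20.5 in the basal libraries and 19.8 and 35.1 with IL-4. PWK held 14.8, 37.1 and 70.5 in the basal libraries and 6.47, 40.9 and 108 with IL-4, and SPRET 12.6, 11.4 and 20.5 in the basal libraries and 16.9, 7.78 and 29.6 with IL-4. The groups overlapped in these 4 strains, and in PWK and SPRET the libraries of 1 group spanned more than the difference between the groups. Over the 5 strains the log2 differences lay between -0.11 and 1.17 and the adjusted p between 0.54 and 0.99.

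H2-Eb1, the I-E beta chain gene, had levels at its start near those of H2-Aa. BALB held 51.1, 54.6 and 31.7 in the basal libraries and 113 and 88.9 with IL-4, again without overlap. C57 held 26.2, 108, 27.9 and 24.3 in the basal libraries and 143, 78.7 and 35.9 with IL-4, with the same second basal library highest in its group. In NOD, PWK and SPRET the basal libraries ran from 5.33 to 53.04 and those with IL-4 from 6.36 to 94.9, and the groups overlapped in each strain. Over the 5 strains the log2 differences lay between 0.18 and 1.15 and the adjusted p between 0.66 and 0.97.

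A region inside H2-Eb1 had more H3K27ac in SPRET than in the other strains that hold it, while the Pol II ranges of SPRET and C57 met there. At 3.82 kb SPRET Pol II was 167, 193 and 133 in the basal libraries and 152, 146 and 113 with IL-4, above its own start region in every library. BALB has no such region, and in the other strains the nearest lies at 4.05 kb. Like the SPRET region, that one includes the annotated start at 3.71 kb. There C57 Pol II was 98.6, 128, 37.5 and 50.6 in the basal libraries and 109, 91.02 and 33.4 with IL-4, and its highest basal library (128) lay within the SPRET range. PWK Pol II was 75.5, 76.9 and 73.5 in the basal libraries and 56.8, 50.6 and 77.8 with IL-4, and NOD Pol II 66.2 and 46.6 in the basal libraries and 63.3 and 41.2 with IL-4. H3K27ac at the SPRET region was 138 and 141 in the basal libraries and 196 and 91.5 with IL-4. At 4.05 kb it was 51.6 and 8.56 in the basal libraries and 32.3 and 9.19 with IL-4 in C57, 20.8 and 9.53 in the basal libraries and 15.9 and 12.9 with IL-4 in NOD and 18.9 and 30.5 in the basal libraries and 24.9 and 17.2 with IL-4 in PWK. Every SPRET library was above every library of these 3 strains in H3K27ac, but the regions are not the same 1 kb and the tables were built and scaled apart, so the difference was not tested. The mapping limits of the class II region also apply here, and no input library was read at this region.

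H2-Ab1, the I-A beta chain gene, had little Pol II at its annotated gene start, from 0 to 27.7 normalized tags over all libraries, with log2 differences between -0.35 and 0.99 and adjusted p between 0.83 and 1.00. At its protein-coding start BALB held 88.2, 42.7 and 50.3 in the basal libraries and 249 and 70.6 with IL-4, and C57 31.8, 100.3, 18.8 and 33.4 in the basal libraries and 160.1, 81.9 and 34.6 with IL-4. Both pairs of groups overlapped. NOD held 10.4 and 15.8 in the basal libraries and 19.8 and 28.3 with IL-4, higher at 24 h without overlap. PWK held 14.8, 34.3 and 57.6 in the basal libraries and 14.4, 37.7 and 110.3 with IL-4, and SPRET 20.3, 7.61 and 23.6 in the basal libraries and 29.6, 14.1 and 34.2 with IL-4, both with overlap.

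Ciita, the coactivator of the other 4 genes, had low Pol II at its first annotated start. There BALB held 11.5, 23.7 and 17.5 in the basal libraries and 31.97 and 45.2 with IL-4, higher at 24 h without overlap. C57 held 3.12, 9.63, 14.5 and 22.3 in the basal libraries and 22.7, 10.5 and 17.96 with IL-4, NOD 1.30 and 3.42 in the basal libraries and 2.26 and 21.6 with IL-4, and SPRET 6.77, 6.09 and 11.8 in the basal libraries and 10.1, 13.4 and 36.9 with IL-4. The groups of these 3 strains overlapped, and over the 4 strains the log2 differences lay between 0.62 and 1.43 and the adjusted p between 0.40 and 0.89. More Pol II lay in the region that covers the EGR2 peak of the intron, at 9.17 to 9.24 kb, near the annotated starts at 9.69 and 9.72 kb. The C57 region ends just before these starts, while those of BALB and NOD include the start at 9.69 kb. BALB held 45.4, 73.5 and 27.4 in the basal libraries and 136 and 125 with IL-4 there, and C57 45.5, 56.97, 46.6 and 21.3 in the basal libraries and 89.4, 67.8 and 35.9 with IL-4. NOD held 8.43 and 19.9 in the basal libraries and 24.3 and 47.9 with IL-4, and PWK 21.9, 53.9 and 63.6 in the basal libraries and 23.01, 71.1 and 142 with IL-4. The 24-hour libraries were all above the basal ones in BALB and NOD, and the groups overlapped in C57 and PWK.

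H3K27ac, a mark of active promoters and enhancers, had smaller median differences than Pol II at the same regions. These medians include the shift of each whole table, which was downward for H3K27ac in every strain and upward for Pol II in BALB. Limma called 0 regions of the 5 genes in BALB (2.26% of all regions called), C57 (0%), NOD (0.0566%), PWK (0.535%) and SPRET (1.19%), and edgeR and DESeq2 also called 0. At an unadjusted p under 0.05 there were 2 of 32 in BALB, 1 of 39 in C57, 6 of 37 in NOD, 2 of 37 in PWK and 6 of 28 in SPRET, beside 11.9%, 22%, 12.4%, 10.6% and 12.2% of all regions. The median log2 difference over the regions of the 5 genes was 0.51 in BALB, 0.25 in C57, 0.47 in NOD, 0.15 in PWK and 0.02 in SPRET. Over all regions the medians were -0.30, -0.28, -0.20, -0.18 and -0.09 in the same order, so the 5 genes stood above the whole table in each strain, which was not tested.

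At the start of Cd74, NOD H3K27ac was 26.6 and 20.6 in the basal libraries and 50.6 and 57.97 with IL-4, and SPRET H3K27ac 29.1 and 15.8 in the basal libraries and 68.8 and 31.2 with IL-4. In both strains the 24-hour libraries were above the basal ones. C57 held 149 and 43.5 in the basal libraries and 169.8 and 82.04 with IL-4, PWK 24.03 and 64.2 in the basal libraries and 28.3 and 86.8 with IL-4, and BALB 137 and 82.2 in the basal libraries and 356 and 85.8 with IL-4. The groups overlapped in these 3 strains. Over the 5 strains the log2 differences lay between 0.33 and 1.17 and the adjusted p between 0.36 and 0.91. In BALB the second 24-hour library had 28.7% of its tags in the table's regions, against 57.1% in the first, and held the lower value at Cd74 and at each chain gene.

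Among the chain genes, NOD H3K27ac at H2-Aa was 6.65 and 13.5 in the basal libraries and 22.4 and 18.01 with IL-4, and at H2-Eb1 5.82 and 13.5 in the basal libraries and 22.4 and 27.6 with IL-4. Both genes were higher at 24 h without overlap, from low basal levels. C57 held 73.3 and 24.96 in the basal libraries and 68.8 and 27.6 with IL-4 at H2-Aa and 80.05 and 24.96 in the basal libraries and 107 and 24.9 with IL-4 at H2-Eb1. BALB held 57.3 and 35.8 in the basal libraries and 119.7 and 37.2 with IL-4 at H2-Aa and 49.97 and 50.04 in the basal libraries and 154 and 38.6 with IL-4 at H2-Eb1. In BALB, C57, PWK and SPRET the groups overlapped at both genes. At the annotated gene start of H2-Ab1 they overlapped in all 5 strains. The log2 differences lay between 0.02 and 1.00 for H2-Aa (adjusted p between 0.52 and 0.99), between -0.45 and 1.38 for H2-Eb1 (adjusted p between 0.40 and 0.99) and between -0.17 and 0.90 for the annotated gene start of H2-Ab1 (adjusted p between 0.59 and 0.98). At the protein-coding start of H2-Ab1 they were 0.65 in BALB, 0.76 in C57, 1.02 in NOD, 0.23 in PWK and 0.66 in SPRET. The adjusted p there lay between 0.52 and 0.94.

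The C57 replicates of H3K27ac stood apart at the start regions of these genes, and at the first Ciita start in the other direction. The first basal library was above the second by 1.69 on the log2 scale at H2-Ab1, 1.52 at H2-Aa, 1.64 at H2-Eb1 and 1.76 at Cd74. At Ciita the difference was -1.55, and the median over all regions was 0.08. At 24 h the same differences were 1.21, 1.29, 2.06 and 1.04, with -1.21 at Ciita and a median of 0.09. The start regions of the chain genes and Cd74 were high in one replicate and that of Ciita in the other. Each gap was larger than the log2 difference between basal and 24 h at any of the 5 start regions. Elsewhere in the Ciita window the basal libraries were not ordered alike. The first was higher at 9.17 kb (96.3 and 75.6) and the second at -4.0 kb (134 and 182). What set these replicates apart was not tested.

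**Figure D3:**
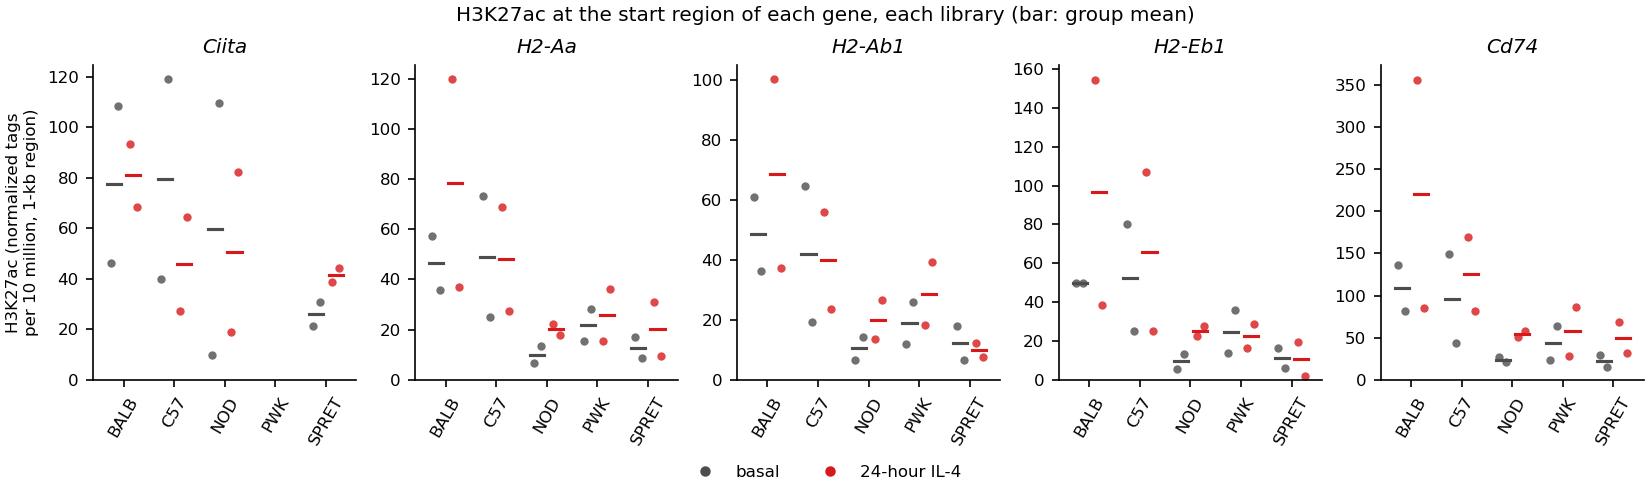
H3K27ac normalized tags (vertical axes, linear from 0, scaled apart for each gene) at the start region of each gene in the 5 strains, with a point for each of 2 libraries a group and a bar for the mean, grey basal and red 24-hour IL-4. H2-Ab1 is shown at its annotated gene start and not at its protein-coding start, and Ciita at its first annotated start. In C57 the 2 basal libraries lie far apart at every gene (149 and 43.5 at Cd74). In NOD the groups are apart at H2-Aa, H2-Eb1 and Cd74, where no region passed the test (adjusted p between 0.40 and 0.52).

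Within the Ciita window an intron region and an upstream region had mean H3K27ac differences of opposite sign. The intron region that covers the EGR2 peak held 96.3 and 75.6 in the basal libraries and 158 and 161 with IL-4 in C57 (log2 difference 0.89, SE 0.36, adjusted p = 0.21), without overlap and with the largest gain of the mean among the C57 regions of the 5 genes. BALB held 83.04 and 125 in the basal libraries and 239 and 116 with IL-4, NOD 24.9 and 51.6 in the basal libraries and 44.1 and 85.5 with IL-4, and PWK 39.5 and 181 in the basal libraries and 57.9 and 184 with IL-4. The groups of these 3 strains overlapped. In BALB and NOD the 1-kb region also includes the annotated Ciita start at 9.69 kb. The region upstream at -4.0 kb held 134 and 182 in the basal libraries and 95.1 and 84.7 with IL-4 in C57 (log2 difference -0.79, SE 0.37, adjusted p = 0.26), the largest loss of the mean. BALB held 133 and 175 in the basal libraries and 109 and 85.8 with IL-4, NOD 39.9 and 227 in the basal libraries and 50.6 and 109 with IL-4, and PWK 94.4 and 208 in the basal libraries and 83.5 and 95.4 with IL-4. The 24-hour libraries lay below the basal ones in C57 and BALB, and the groups overlapped in NOD and PWK. At the first Ciita start C57 held 40.03 and 119 in the basal libraries and 27.2 and 64.3 with IL-4 (log2 difference -0.71, SE 0.66, adjusted p = 0.54).

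In the other strains the largest gain of mean H3K27ac, among regions with at least 16 normalized tags in either group, was mostly inside Cd74. It was at Cd74 3.6 kb in SPRET, with means of 30.8 and 76.5 in the basal state and with IL-4 (log2 difference 1.28, SE 0.38, adjusted p = 0.13). It was at Cd74 4.99 kb in NOD, with means of 21.5 and 62.8 in the basal state and with IL-4 (log2 difference 1.42, SE 0.57, adjusted p = 0.36). In PWK it was at Cd74 5.14 kb, with means of 10.9 and 31.1 in the basal state and with IL-4 (log2 difference 1.47, SE 0.61, adjusted p = 0.39). The BALB region lay over the EGR2 peak upstream of H2-Aa, at H2-Aa -5.94 kb, with means of 28.4 and 71.2 in the basal state and with IL-4 (log2 difference 1.19, SE 0.61, adjusted p = 0.43). None of the 4 passed the test without a replicate block. The largest losses lay at Ciita -3.94 kb in BALB, with means of 154 and 97.5 in the basal state and with IL-4 (log2 difference -0.65, SE 0.74, adjusted p = 0.83) and at H2-Eb1 9.86 kb in NOD, with means of 29.3 and 11 in the basal state and with IL-4 (log2 difference -1.34, SE 0.57, adjusted p = 0.38). Those of the wild-derived strains lay at Cd74 -23.65 kb in PWK, with means of 21.7 and 6.71 in the basal state and with IL-4 (log2 difference -1.55, SE 0.61, adjusted p = 0.36) and at H2-Eb1 11.58 kb in SPRET, with means of 29.9 and 16.8 in the basal state and with IL-4 (log2 difference -0.81, SE 0.45, adjusted p = 0.51). No loss passed that test either.

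The region inside Cd74 at 3.56 to 3.6 kb, which covers an EGR2 and STAT6 peak in an intron, is the site also read in the Egr2 genotypes. NOD H3K27ac there was 113 and 116 in the basal libraries and 242 and 159.8 with IL-4, PWK H3K27ac 90.99 and 109.6 in the basal libraries and 204 and 178 with IL-4, and SPRET H3K27ac 27.4 and 34.2 in the basal libraries and 87.3 and 65.7 with IL-4. In these 3 strains each 24-hour library was above each basal one. BALB held 47.8 and 78.04 in the basal libraries and 131 and 71.9 with IL-4, and C57 107 and 169.7 in the basal libraries and 179 and 154 with IL-4, both with overlap. PWK Pol II was 45.1, 96.5 and 192 in the basal libraries and 56.1, 186 and 546 with IL-4 (with the block, log2 difference 0.92, adjusted p = 0.0018), and the third library of each group was the highest.

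H3K4me3, the mark of active promoters, and H3K4me2, which marks promoters and enhancers, were read at the same regions, and again no region passed the test. For H3K4me3, limma called 0 regions of the 5 genes in BALB (0%), C57 (0%), NOD (0.0203%), PWK (0.0349%) and SPRET (0%), and 8, 5, 4, 1 and 1 of them were under an unadjusted p of 0.05, all higher at 24 h, beside 6.31%, 19.5%, 5.41%, 4.75% and 6.17% of all regions. DESeq2 called 3 in BALB, Cd74 1.15, 2.06 and 2.86 kb, and edgeR called 0. The median log2 differences were 0.38, 0.72, 0.47, 0.49 and 0.38 in the order BALB, C57, NOD, PWK and SPRET, beside -0.06, 0.11, -0.02, 0.09 and 0.00 over all regions. BALB held 62.4 and 45.2 in the basal libraries and 129.8 and 85.3 with IL-4 at the H2-Aa start and 54.9 and 44.6 in the basal libraries and 109 and 66.5 with IL-4 at the Cd74 start, both without overlap. C57 held 53.9 and 25.8 in the basal libraries and 83.7 and 41.4 with IL-4 at H2-Aa and 52.4 and 22.4 in the basal libraries and 89.2 and 48.4 with IL-4 at Cd74, both with overlap. Without overlap in C57 was Cd74 3.56 kb, with 19.6 and 22.9 in the basal libraries and 84.3 and 49.2 with IL-4. For H3K4me2, the median log2 differences were -0.47, -0.29, -0.16, -0.13 and -0.38, beside -0.63, -0.69, -0.30, -0.18 and -0.48 over all regions, and after scaling to the median of the regions they were 0.14, 0.37, 0.14, 0.03 and 0.07. The sign of H3K4me2 at these genes therefore turned with the scaling. Limma called 0 regions in BALB (0.0111%), C57 (0.236%), NOD (0.189%), PWK (0.314%) and SPRET (0%), with 0, 4, 0, 1 and 4 under an unadjusted p of 0.05 beside 1.87%, 34%, 8.37%, 4.79% and 32.4% of all regions, and edgeR and DESeq2 called 0.

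The study's thresholds for responsive regions, here a fold of at least 2.5 between group means plus 1, where either group has 16 normalized tags or more (8 or more for Pol II), carry no error and were applied to each mark alone. For Pol II they took 9 of 32 regions as higher at 24 h in BALB (5.91% of all regions), 1 of 39 in C57 (1.57%), 6 of 37 in NOD (2.35%), 1 of 37 in PWK (2.66%) and 1 of 28 in SPRET (1.54%). The 9 of BALB were Cd74 1.15, 2.06, 2.86 and 3.58 kb, Ciita 6.90, 8.56 and 9.22 kb, H2-Ab1 5.49 kb and H2-Aa -5.94 kb. The 6 of NOD were Cd74 -0.12, 2.06, 2.76 and 3.6 kb and Ciita -0.01 and 6.89 kb. The others were Cd74 7.50 kb in C57, Ciita 20.84 kb in PWK and Ciita 6.84 kb in SPRET. The only region lower at 24 h was H2-Ab1 -17.84 kb in NOD (1.25% of all regions), at the gene H2-Ob, with means of 21.4 and 7.84. For H3K27ac the thresholds took 0 regions in either direction in BALB (7.97% of all regions), C57 (11%) and SPRET (3.58%), and 2 each in NOD (8.38%) and PWK (6.12%), which were the largest gain and the largest loss of those strains named before. The Pol II share was above that of all regions in each strain, but it rested on 1 region each in C57, PWK and SPRET. The H3K27ac share was below that of all regions in all strains, and neither was tested.

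The C57 time course asks when the change after IL-4 appears, at 44 regions of the 5 genes of 77955 in its table. It uses the same basal and 24-hour libraries as the C57 strain table, and its 3 contrasts share the basal libraries, so they are not independent of each other or of the strain comparison. H3K27ac fell at 3 of the 44 regions at 1 h (9.72% of all regions called in either direction), at 0 at 6 h (5.13%) and at 1 at 24 h (1.45%), and rose at none. At 6 h, 5 regions were under an unadjusted p of 0.05 (20.2% of all regions), edgeR called 0 and DESeq2 1. All 3 regions called at 1 h lay in the Ciita window.

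The upstream region of Ciita at -4.0 kb held 134 and 182 in the basal state, 25.5 and 43.7 at 1 h, 65.5 and 94.3 at 6 h and 95.1 and 84.7 at 24 h (1 h, log2 difference -2.19, SE 0.55, adjusted p = 0.024). The region at 2.47 kb held 31.2 and 74.2 in the basal state, 4.64 and 12.4 at 1 h, 14.6 and 12.2 at 6 h and 34.8 and 45.3 at 24 h (1 h, log2 difference -2.50, SE 0.62, adjusted p = 0.023). The region at 7.81 kb, which covers the annotated starts between 8.12 and 8.22 kb, held 99.05 and 111 in the basal state, 30.1 and 30.98 at 1 h, 70.1 and 122 at 6 h and 139 and 108 at 24 h (1 h, log2 difference -1.75, SE 0.54, adjusted p = 0.048). Both libraries at 1 h were below both basal libraries at each of these regions, and at 7.81 kb the 24-hour libraries overlapped the basal ones. The neighbouring intron region at 9.17 kb held 96.3 and 75.6 in the basal state, 53.3 and 18.6 at 1 h, 79.3 and 123 at 6 h and 159 and 162 at 24 h, with the 1-hour libraries lowest and the 24-hour libraries highest. The region of H2-Ab1 at -17.81 kb, which covers the start of H2-Ob, held 128 and 111 in the basal state, 37.1 and 41.6 at 1 h, 40.8 and 28.6 at 6 h and 28.01 and 21 at 24 h (24 h, log2 difference -2.24, SE 0.54, adjusted p = 0.043). H2-Ob encodes the beta chain of H2-O, which holds back peptide loading by H2-DM, and its region was below basal in all 6 libraries with IL-4.

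The calls at Ciita depended on the scaling, and the fall at H2-Ab1 -17.81 kb less so. The 1-hour libraries had 44.0% and 20.5% of their tags in the table's regions, against 69.7% and 63.8% in the basal libraries, 51.0% and 50.3% at 6 h and 46.4% and 41.2% at 24 h. The median log2 difference over all regions was -0.63 at 1 h, -0.14 at 6 h and -0.22 at 24 h. After scaling to the median of the regions none of the 4 calls remained, with log2 differences of -1.39 (adjusted p = 0.13), -1.73 (adjusted p = 0.16) and -0.95 (adjusted p = 0.23) at Ciita -4.0, 2.47 and 7.81 kb at 1 h and -1.93 (adjusted p = 0.053) at H2-Ab1 -17.81 kb at 24 h. At H2-Ab1 -17.81 kb the log2 difference thus moved little and its adjusted p crossed the threshold. EdgeR also called none, and DESeq2 called H2-Ab1 -17.81 kb at 6 h and 24 h. The direction held in each case.

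No start region of Cd74 or of a chain gene was called at any time. The start region of Cd74 held 159 and 45.6 in the basal state, 70.3 and 21.7 at 1 h, 117 and 145 at 6 h and 181 and 82.7 at 24 h. That of H2-Aa held 73.3 and 24.96 in the basal state, 39.4 and 16.2 at 1 h, 53.9 and 64.5 at 6 h and 68.8 and 27.6 at 24 h, and that of H2-Eb1 80.7 and 24.96, then 51.8 and 18.6, 45.4 and 62.1 and 107 and 24.9 in the same order. The start region of H2-Ab1 held 64.5 and 18.5, then 19.3 and 9.98, 32.3 and 42.6 and 56.02 and 25.6. At each of these start regions the first library of each group from the basal state and 24 h was the higher, as in the strain table, and the groups overlapped at every time. At the protein-coding start of H2-Ab1, at 5.46 kb, the libraries ran from 24.2 to 81.4 in the basal state and from 52.5 to 115 at 24 h. The largest gain of the mean at 6 h was at Ciita 18.27 kb (log2 difference 1.44, SE 0.72, adjusted p = 0.27) and at 24 h at Cd74 5.02 kb (log2 difference 1.06, SE 0.70, adjusted p = 0.44). At 1 h the largest gain was small, at Ciita 20.85 kb (log2 difference 0.31, SE 0.70, adjusted p = 0.79).

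**Figure D4:**
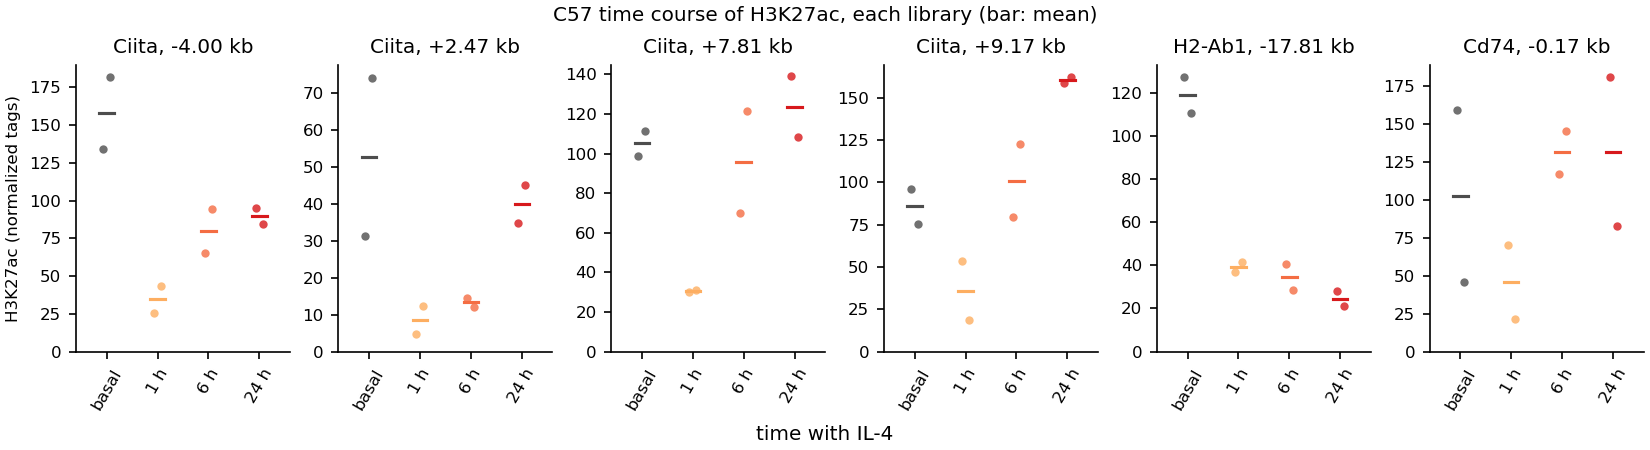
H3K27ac normalized tags (vertical axes, linear from 0, scaled apart for each panel) at 6 regions in C57 in the basal state and at 1, 6 and 24 h of IL-4, with a point for each of 2 libraries and a bar for the mean. The Ciita regions at -4.0, 2.47 and 7.81 kb are lowest at 1 h, the H2-Ab1 region at -17.81 kb stays low to 24 h, and the libraries of the Cd74 start overlap at every time.

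Pol II over the same times passed the test at 0 of the 44 regions at 1 h (0.0911% of all regions called), 6 h (0.566%) and 24 h (0.677%), with 3, 3 and 9 under an unadjusted p of 0.05 beside 10%, 10.2% and 9.55% of all regions. EdgeR called 0, and DESeq2 called Cd74 7.50 kb at 24 h. At the Cd74 start Pol II was 82.4, 184, 159.7 and 52.7 in the 4 basal libraries, 88.3 in the 1 library at 1 h, 116 and 170.1 at 6 h and 326, 271 and 94.9 at 24 h. At the H2-Aa start it was 31.2, 100.3, 18.8 and 24.3, then 25.9 at 1 h, 45.5 and 73.1 at 6 h and 149, 76.5 and 42.3 at 24 h. The levels at 1 h lay among the basal ones at both genes, and the single library of that time gives no spread of its own.

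Binding of the factors was read from peak lists made for each group, whose lengths differ between strains, factors and conditions, so that counts describe the lists and were not tested. STAT6, the factor that IL-4 activates, had more peaks at the 5 genes at 24 h than in the basal state in each strain: 12 against 3 in BALB, 26 against 18 in C57, 16 against 8 in NOD, 25 against 10 in PWK and 19 against 11 in SPRET. Of the basal STAT6 peaks, 2 of 3, 15 of 18, 6 of 8, 10 of 10 and 9 of 11 were still there at 24 h, by an overlap of at least 1 base. The whole STAT6 lists held 16432 against 11486 peaks in BALB, 39537 against 30589 in C57, 20619 against 20653 in NOD, 38679 against 14022 in PWK and 35742 against 28212 in SPRET. The 5 genes thus took 0.073% against 0.0261% of the list in BALB, 0.0658% against 0.0588% in C57, 0.0776% against 0.0387% in NOD, 0.0646% against 0.0713% in PWK and 0.0532% against 0.039% in SPRET, a larger share at 24 h in each strain but PWK. In C57 at 24 h, 11 of the 26 STAT6 peaks lay at Ciita, 9 at Cd74, 4 at H2-Ab1 and 1 each at H2-Aa and H2-Eb1. EGR2, a zinc finger factor, had 16 against 11 peaks in BALB, 11 against 4 in C57, 4 against 6 in NOD, 2 against 0 in PWK and 14 against 6 in SPRET. As shares of the EGR2 lists these were 0.0431% against 0.0381%, 0.0374% against 0.0474%, 0.0241% against 0.0237%, 0.0134% against 0% and 0.0355% against 0.0488%, lower at 24 h in C57 and SPRET although the counts were higher. PPARg, a nuclear receptor, had 10 against 4, 18 against 1, 11 against 5, 13 against 9 and 4 against 4 in the same order of strains. The PPARg shares were 0.0424% against 0.0613%, 0.046% against 0.0131%, 0.0272% against 0.0399%, 0.028% against 0.0489% and 0.0216% against 0.0203%, lower at 24 h in BALB, NOD and PWK. C/EBPb, a bZIP factor of myeloid cells, had 10 against 1, 13 against 4, 17 against 2, 15 against 12 and 6 against 6, with a share of the list between 0.00729% and 0.0371% in the basal state and between 0.0205% and 0.0376% at 24 h. PU.1, the lineage factor of myeloid cells, was the most abundant, with 40 against 39, 48 against 43, 45 against 38, 38 against 37 and 34 against 36, and shares from 0.0355% to 0.05% and from 0.0422% to 0.0532%. For NOD EGR2 and SPRET PU.1 the 24-hour count was the lower one, and for PPARg and C/EBPb in SPRET both counts were equal.

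Few places carried peaks of several factors in every strain. EGR2 peaks at Ciita 9.20 kb, whose sequence is shown, and at Cd74 -0.10 kb were listed at 24 h in all 5 strains and in the basal state in all but PWK. STAT6 was listed at both places at 24 h in all 5 strains, and in the basal state in C57, PWK and SPRET at Ciita 9.20 kb and in C57 alone at Cd74 -0.10 kb. At Cd74 3.55 kb STAT6 was listed in all 12 of its lists, while EGR2 was in no basal list there and was listed at 24 h in BALB, C57 and SPRET. At H2-Aa -5.93 kb, whose sequence is also shown, EGR2 was listed in both conditions in BALB, C57 and NOD, at 24 h in SPRET and in neither in PWK. STAT6 was listed there after IL-4 in C57, NOD, PWK and SPRET and in no basal list. A site missing from a list may have fallen under that list's threshold.

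The tags of EGR2 in C57 gave its levels at 13 sites of the 5 genes, of 30675 in the table, counted within each peak. At Ciita 9.20 kb EGR2 was 75.9 and 71.2 in the basal state, 26.2 and 83.9 at 1 h, 105 and 122 at 6 h and 104 and 101 at 24 h. At Cd74 -0.10 kb it was 59.01 and 68.5 in the basal state, 41.5 and 63.6 at 1 h, 117 and 156 at 6 h and 131 and 113 at 24 h. At both sites the 6-hour and 24-hour libraries were above the basal ones. At Cd74 3.55 kb it was 11.2 and 33.6 in the basal state, 31.6 and 55.9 at 1 h, 34.9 and 109.5 at 6 h and 41.7 and 102 at 24 h, with overlap at 1 h only. At H2-Aa -5.93 kb it was 31.4 and 45.7 in the basal state, 20.8 and 49.2 at 1 h, 43.6 and 61.1 at 6 h and 62.4 and 57.6 at 24 h, and at H2-Eb1 11.67 kb 24.8 and 41.6 in the basal state, 16.3 and 42.4 at 1 h, 29.7 and 51.95 at 6 h and 51.2 and 40.3 at 24 h. The 24-hour libraries were above the basal ones at H2-Aa, and the groups overlapped at H2-Eb1. Limma called 0 of the 13 sites at 1 h (0% of all sites called), 6 h (0%) and 24 h (0%), with 0, 2 and 1 under an unadjusted p of 0.05 beside 3.54%, 3.81% and 3.38% of all sites, and edgeR and DESeq2 called 0. The median log2 difference of the 13 sites was -0.28, 0.48 and 0.65 at 1, 6 and 24 h, beside -0.59, 0.17 and 0.66 over all sites, close to one another at 24 h. The first 1-hour library had 5.38% of its tags in the sites and the second 13.11%.

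Whether EGR2 bears on these genes could be read at 1 site, Cd74 3.55 kb, the only row of the 5 genes among the 4677 sites of the Egr2 genotype tables. Those sites were chosen as EGR2 peaks gained with IL-4 at 24 h, so a gain of EGR2 there is part of the choice. In Egr2 fl/fl BMDMs H3K27ac was 56.2 and 64.5 in the basal libraries and 129 and 203 with IL-4. In LyzM-Cre Egr2 fl/fl BMDMs it was 53.1 and 86.3 in the basal libraries and 209 and 320.4 with IL-4. H3K27ac rose without overlap in both genotypes, by a log2 difference of 1.41 (SE 0.29, adjusted p = 0.0017) without and 1.92 (SE 0.29, adjusted p = 0.00015) with LyzM-Cre, where limma called 28.1% and 18.5% of all sites. The basal levels of the genotypes differed by less than the spread allows to call (log2 difference 0.17, adjusted p = 0.88, 0.192% of sites called). At 24 h the level with LyzM-Cre was higher by 0.68 (SE 0.29, adjusted p = 0.099, 24.7% of sites called in either direction), while the median over all sites was -0.50. That difference did not pass in the main test, but it did with edgeR and DESeq2 and after scaling to the median of the sites (1.21, adjusted p = 0.0074). Since the sites were chosen as EGR2 gains, that scaling also takes out any genotype difference that they share. The difference between the 2 responses was 0.51 (SE 0.41, adjusted p = 0.63, 0% of sites called).

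STAT6 at the same site, counted in 300 bp, was 11.3 and 10.8 in the basal and 64.7 and 49.6 in the 24-hour libraries of Egr2 fl/fl. With LyzM-Cre it was 24.5 and 2.75 in the basal and 67.01 and 41.7 in the 24-hour libraries. STAT6 rose in both genotypes without overlap, by 2.26 (SE 0.62, adjusted p = 0.018, 11.8% of sites called) and 2.46 (SE 0.62, adjusted p = 0.038, 1.20% of sites called). Both calls turned with single choices, although scaling to the median of these chosen sites also takes out any rise that they share. After scaling to the median of the sites the first was 1.10 (adjusted p = 0.45), it was lost without any 1 of the 4 Egr2 fl/fl libraries, and without the second basal library the second was 1.08 (adjusted p = 0.84). The genotypes differed by -0.30 in the basal state (adjusted p = 1.00, 0% of sites called) and by -0.10 at 24 h (adjusted p = 0.95, 0.0214% of sites called), and the difference between the responses was 0.20 (SE 0.87, adjusted p = 0.96, 0% of sites called). PU.1 stood between 218 and 265 normalized tags in all 8 of its libraries and H3K4me2 between 63.4 and 91.6. Pol II, with 1 library a group and no test, was 15.02 and 47.6 in Egr2 fl/fl and 31.2 and 122 with LyzM-Cre, before and after IL-4.

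**Figure D5:**
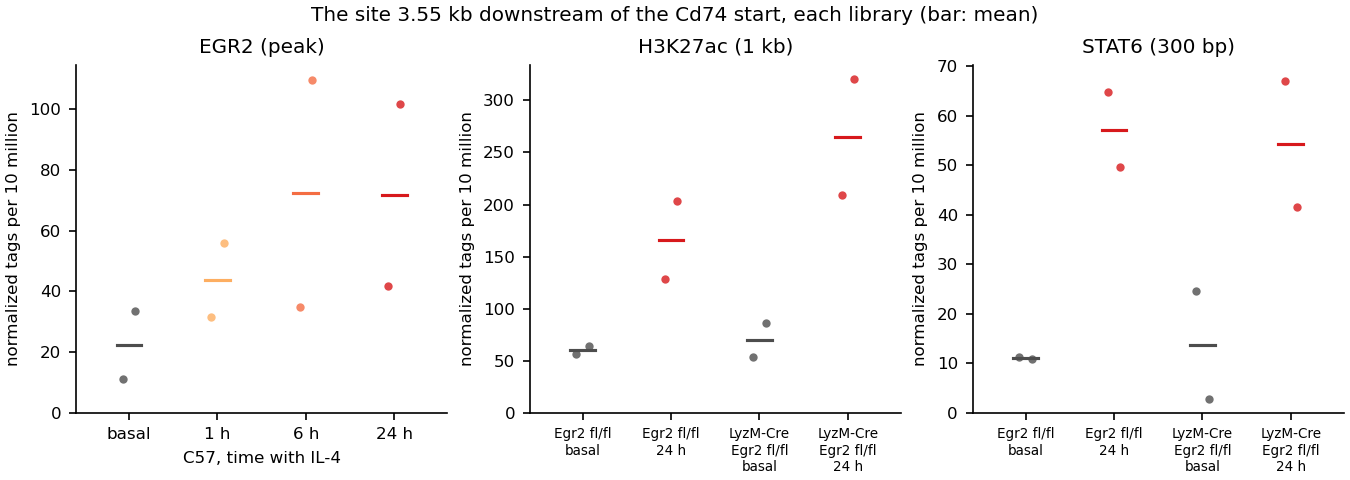
Normalized tags (vertical axes, linear from 0) at the Cd74 site at 3.55 kb: EGR2 in C57 by time after IL-4, and H3K27ac (1 kb) and STAT6 (300 bp) in the Egr2 genotypes, with a point for each library and a bar for the mean. H3K27ac lies above its basal libraries at 24 h in both genotypes (129 and 203 in Egr2 fl/fl, 209 and 320.4 with LyzM-Cre), and so does STAT6.

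The other genes of the class II pathway, 23 in a fixed list that holds the remaining class II chains, the H2-DM and H2-O chaperones, lysosomal proteases, the DNA-binding factors of the class II promoter and costimulatory molecules, gave a comparison at their start regions. Of these, 16 had a start region in BALB, 19 in C57, 19 in NOD, 18 in PWK and 19 in SPRET, and 0 were called by limma in H3K27ac or Pol II at 24 h in any strain. Their median log2 difference of Pol II was 0.47, 0.06, 0.01, -0.04 and -0.17 in that order, and that of H3K27ac -0.43, -0.67, -0.27, -0.29 and -0.32. The Pol II medians differed most from those of all regions in BALB (0.47 against 0.32), the H3K27ac medians were below those of all regions in each strain (-0.67 against -0.28 in C57), and the difference from the 5 genes was not tested. H2-DMb1, whose product is a beta chain of the H2-DM peptide editor, had a Pol II log2 difference of 1.67 in BALB (SE 0.65, adjusted p = 0.35), 0.74 in C57 (adjusted p = 0.69), 0.92 in NOD (adjusted p = 0.77), 0.35 in PWK (adjusted p = 0.87) and -0.06 in SPRET (adjusted p = 0.96). In the C57 time course, 2 of 20 start regions of the list were called in H3K27ac, Lgmn, a lysosomal protease, at 1 h (-2.36, SE 0.59, adjusted p = 0.024) and H2-Ob at 24 h, both lower. Of all regions, 9.72% were called at 1 h and 1.45% at 24 h, the median difference at 1 h was -0.63, and the H2-Ob region is the one at H2-Ab1 -17.81 kb whose call was lost after median-ratio scaling. Of 9 genes of class I presentation, 7 had a start region in BALB and NOD and all 9 in the other strains, and 0 were called, with medians of 0.24, -0.05, -0.27, -0.10 and -0.24 for Pol II and -0.35, -0.70, -0.49, -0.21 and -0.20 for H3K27ac.

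Dendritic cells and B cells also carry class II, and their markers were read in the same libraries. The dendritic cell list of 7 genes had 2 or 3 start regions in a strain, whose summed Pol II ran from 15.3 to 160.6 in the basal libraries and from 37.8 to 439.4 with IL-4, and summed H3K27ac from 65.6 to 250.2 and from 232.0 to 689.4. Pol II of Itgax, which macrophages also express, rose in BALB (log2 difference 2.98, adjusted p = 0.0025), C57 (2.29, adjusted p = 0.045), PWK (2.01, adjusted p = 0.0013) and SPRET (1.45, adjusted p = 0.043), with 2.92 in NOD (adjusted p = 0.23), and Zbtb46 rose in PWK (2.00, adjusted p = 0.047). The other readings of the list did not pass the test, with Zbtb46 at 1.81 in BALB, 0.95 in NOD, 0.89 in SPRET and -0.49 in C57, Flt3 at -0.88 in C57 and Dpp4 at -0.95 in NOD. Itgax, and Zbtb46 outside C57, had the sign of the Pol II medians of the 5 genes, and their part in the results was not tested. The B cell list of 5 genes had 1 or 2 start regions, with summed Pol II of 5.5 to 28.5 basal and 6.8 to 29.5 with IL-4, and H3K27ac of 55.8 to 150.8 and 31.4 to 109.1. In the C57 time course H3K27ac of its gene Ms4a1 fell at 1 h (log2 difference -2.39, SE 0.64, adjusted p = 0.031). The median over all regions was -0.63 at that time. The T cell list had 1 of 3 genes with a start region, in 1 strain, at H3K27ac of 4.1 to 7.2 in all. The neutrophil list of 4 genes had 1 or 2, with H3K27ac of 21.4 to 465.2 basal and 42.7 to 346.8 with IL-4. The macrophage list had 5 or 6 of 6, with H3K27ac of 1656.6 to 2907.6 basal and 935.3 to 2199.6 with IL-4, so the labelled cell type had its own markers in every strain. The start regions of the 5 genes summed to 55.7 to 407.0 basal and 78.1 to 823.8 with IL-4.

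Across the 8 H3K27ac libraries of the C57 time course, the start region of H2-Ab1 had a Pearson r of 0.964 with that of Cd74, 0.939 with H2-Aa, 0.877 with H2-Eb1 and 0.04 with Ciita. Among 12274 genes with a start region, those most like Cd74 were H2-DMb1 (0.990), Bola3 (0.984), Bhlhe40 (0.977), Spryd4 (0.977) and Ccdc167 (0.976). Those most like H2-Ab1 were Ccdc167, Spryd4, Fdx1l, Gm49373 and Pemt, each at 0.985. Fdx1l and Gm49373 had the same values in all 8 libraries and do not count as separate regions. Those most like Ciita were Tesk2 (0.976), Gas7 (0.974), Taf11 (0.967), Nwd1 (0.963) and Cenpm (0.957), and Ciita stood at -0.183 with H2-Aa, -0.27 with H2-Eb1 and -0.035 with Cd74. These are descriptions over 8 libraries that share depth and scaling, and the gap between C57 replicates enters all of them. They hold for the annotated gene start of H2-Ab1 and the first annotated start of Ciita, and not for other regions of these genes.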

How the data were processed

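Signal of H3K27ac, H3K4me2, H3K4me3, Pol II, EGR2 and, in the Egr2 genotypes, STAT6, PU.1, C/EBPb and PPARg was taken from the deposited tag tables, in which the authors had aligned reads with Bowtie2, moved strain reads to mm10 with MMARGE, and counted tags with HOMER, scaled to 10000000 tags of each library. Counting windows were 1000 bp for histone marks and Pol II, 300 bp for factors of the Egr2 genotypes and the peak itself for the EGR2 time course. Every value was a whole number of reads within 0.1 read after rescaling. Per the file headers the peak lists were called with HOMER and filtered with IDR (irreproducible discovery rate), and their deposited score was not compared between lists. No sample could be matched to 4 columns, named as a second Pol II replicate of each group of the Egr2 genotypes, and they were not used, which leaves 1 Pol II library in each of those groups.

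The 5 genes, the lists of other genes and markers and the named regions were chosen with earlier results of these data known. Named were the start region of each gene (nearest centre within 1 kb), the region with the largest rise and fall of mean H3K27ac in each strain and at each time, the highest distal H3K27ac region of each gene in C57, the sites of EGR2 and the Egr2 genotypes (the 5 highest where there were more than 10), and the 5 genes most like H2-Ab1, Ciita and Cd74. Regions that only other tools or the block called were named after their values were seen.

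Each comparison was fitted across all regions of its table with limma 3.58.1 (R 4.3.3, trend on mean level) on log2(normalized tags + 1), with Benjamini-Hochberg adjustment and a threshold of 0.05. The alternatives were edgeR 4.0.16 and DESeq2 1.42.0 on recovered reads, a pseudocount of 5, a filter on low values, median-ratio scaling, windows of 10 and 50 kb, a replicate block, and leaving out each library. The scripts were tested on simulated data. Labels call the libraries biological replicates but do not tie them to mice, so p-values measure the spread between libraries. Same-numbered Pol II libraries deviated together (correlation of deviations 0.19, 0.30 and 0.40 in C57, 0.63, 0.44 and 0.51 in PWK, and 0.44, 0.41 and 0.42 in SPRET), each over 0.1 in 3 pairs, so the numbers were taken to pair these libraries. In C57 some pairs of unlike number stood as high (0.27, 0.23 and 0.45), so the pairing is least clear there. The other groups share only 2 numbers.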

Additional observations from a re-analysis of the deposited data

Results flagged for a closer look

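In the basal Pol II libraries of C57, 1 of 4 lay far from the others at 3 of the 5 start regions checked. The second library held 19.3 normalized tags at H2-Ab1, where the others held 8.1 to 8.58. It held 100.3 at H2-Aa, with the others from 18.8 to 31.2, and 108 at H2-Eb1, with the others from 24.3 to 27.9. The 3 genes are neighbours on chromosome 17 and are not independent, and Cd74 and Ciita did not meet the same criterion. Chance marks about 1 in 20 groups. The cause was not tested. Over 214 comparisons of the response at these start regions between 2 strains or 2 times, in 0 did every library of one move one way and every library of the other the opposite way. Only pairs without overlap on both sides could meet this criterion. Many of these groups overlapped, so the 0 says little about agreement between strains or times.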

How the results depend on the processing

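The limma calls at 24 h in the 5 strains were 0 for H3K27ac, Pol II, H3K4me2 and H3K4me3. EdgeR gave 1 for Pol II, DESeq2 gave 3 for Pol II and 3 for H3K4me3, and a filter on low values gave 1 for H3K4me3. A block for the replicate number gave 20 for H3K27ac, 19 for Pol II, 5 for H3K4me2 and 20 for H3K4me3. Shares of all regions are given above for the main settings and for the Pol II block of C57, PWK and SPRET. They are not given for the other settings, so the counts in this section cannot be set against the whole tables. For Pol II in C57, PWK and SPRET the numbers pair the libraries, and elsewhere the groups of a strain share only 2 numbers, too few to take as pairs. Same-numbered libraries of the marks in a strain also deviated together (r from 0.45 to 0.67 for H3K27ac, 0.41 to 0.65 for H3K4me3 and 0.15 to 0.43 for H3K4me2), where with 2 libraries a group the unlike numbers have the same r with the other sign. The 20 for H3K27ac include Ciita 9.17 kb (adjusted p = 0.001) and -4.0 kb (0.0035) in C57, Cd74 4.99 kb (0.0018) and H2-Eb1 9.86 kb (0.017) in NOD, Cd74 5.14 kb (0.017) and -23.65 kb (0.024) in PWK, and Cd74 3.6 kb (0.0045) in SPRET. Leaving out 1 library gave 0 to 2 calls for H3K27ac (2 without the second basal library of BALB), 0 to 1 for Pol II (1 without the first 24-hour library of PWK) and 0 to 17 for H3K4me2 (17 and 14 without the first 24-hour library of BALB and of C57, 4 and 2 without the first basal library of NOD and of SPRET).

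The 4 calls of the C57 time course of H3K27ac became 7 with a filter, 0 after median-ratio scaling, 0 with edgeR, 2 with DESeq2, 12 with the block and 10 in windows of 50 kb. Without 1 library they ran from 0 to 9, at 9 without the first 1-hour library, 2 without the first basal or either 24-hour library, and 0 without the second basal or either 6-hour library. The time course of Pol II gave 1 call with DESeq2 and 0 to 2 without 1 library, at 2 without the first basal library (Ciita 2.47 kb at 1 h and at 6 h). The 4 calls of the Egr2 genotypes ran from 2 to 4, at 2 without any STAT6 library of Egr2 fl/fl.

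The 4 regions past the fold thresholds in H3K27ac became 1 with a pseudocount of 5, 15 at a fold of 2, 8 after median-ratio scaling and 8 without the minimum of tags. Without 1 library they ran from 4 to 16, at 16 without the second 24-hour library of BALB, 12 without the first basal library of C57, 11 and 9 without the second basal library of NOD and of PWK, 8 without the second 24-hour library of SPRET, and 7 without the first basal library of BALB or SPRET or the second 24-hour library of NOD. The 19 regions in Pol II became 51 at a fold of 2 and ran from 12 to 30, at 12 without the third basal library of BALB or the second 24-hour library of NOD, 29 without the second basal library of C57 and 30 without the first 24-hour library of PWK. Of the 834 peaks, 516 were in the higher-scoring part of their lists.

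Among the values of single regions under the other settings, 13 changed sign. Those of H2-Ab1 are at its annotated gene start. H2-Ab1 Pol II in C57, -0.35 with limma, was 0.02 with edgeR and 0.02 with DESeq2, and in SPRET, 0.15 with limma, it was -0.10 with a pseudocount of 5, -0.38 with edgeR and -0.37 with DESeq2. H2-Aa Pol II in PWK was 0.31 with edgeR and 0.30 with DESeq2. H2-Eb1 H3K27ac in PWK was 0.15 after median-ratio scaling and 0.05 with edgeR and DESeq2, and in SPRET it was 0.08 with edgeR. At Cd74 3.55 kb the STAT6 difference between genotypes at 24 h was 0.66 after median-ratio scaling, and that between the responses -0.00 with a pseudocount of 5. None of these passed the test.

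Leaving out 1 library turned the sign of further log2 differences. For H3K27ac the ranges in BALB were -0.43 to 0.78 at Ciita, -0.33 to 1.07 at H2-Ab1, -0.28 to 1.38 at H2-Aa, -0.37 to 1.61 at H2-Eb1 and -0.30 to 1.74 at Cd74. In C57 they were -1.49 to 0.06, -0.80 to 0.89, -0.73 to 0.78, -0.82 to 1.23 and -0.34 to 1.42 in the same order. In NOD Ciita ran from -1.45 to 1.89. In PWK the ranges were -0.41 to 0.77 at H2-Aa, -0.72 to 0.61 at H2-Eb1 and -0.46 to 1.12 at Cd74, and in SPRET -0.83 to 0.49 at H2-Ab1, -0.30 to 1.28 at H2-Aa and -1.79 to 0.90 at H2-Eb1. For Pol II, H2-Ab1 ran from -1.06 to 0.08 in C57, -0.27 to 0.42 in NOD, -0.05 to 1.02 in PWK and -0.90 to 0.74 in SPRET. In PWK, H2-Aa ran from -0.99 to 0.95, H2-Eb1 from -0.60 to 1.01 and Cd74 from -0.36 to 1.84, and in SPRET H2-Aa from -0.29 to 0.61. In the time course Ciita 20.85 kb at 1 h ran from -0.67 to 1.29. At Cd74 3.55 kb the basal difference between genotypes ran from -0.18 to 0.51 for H3K27ac and -1.68 to 1.08 for STAT6, the 24-hour difference of STAT6 from -0.43 to 0.24, and that between its responses from -1.18 to 1.59. The cause was not tested.

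With 2 libraries a group for the marks, the gap between replicates limits the differences that pass the test.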
